A study of Rattus norvegicus with 12 samples.

Results

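The potassium channel genes of the rat lung are described here in lung tissue and in lung endothelial cells (ECs) sampled in the Sugen-hypoxia (SuHx) model of pulmonary arterial hypertension. Members were rows of the day 4 expression table in which any symbol starts with Kcn and whose mean signal over the 12 libraries was at least 1. Of 97 rows with such a symbol, 80 met this rule, out of 19230 rows in the table and 15277 with a mean of at least 1. Counted as rows, the members held 31 voltage-gated pore or silent subunits, 15 inward rectifiers, 10 tandem-pore channels, 7 calcium- or sodium-activated channels and 17 auxiliary subunits. The 80 rows hold 78 Kcn symbols, because Kcnj9 and Kcnmb3 each have a row of their own and a merged row. The lowest members were Kcnmb3, Kcnf1 and Kcnc1 with means of 1.15, 1.35 and 1.38, and the nearest rows left out were Kcnk4, Kcnh8 and Kcnj16 with 0.880, 0.774 and 0.637. The 17 rows left out included 5 that were listed at 0 in all libraries. Of the 80 members, 7 sat in rows that merge several genes and are named by the whole row, since a value there cannot be given to 1 gene. The tandem-pore gene Kcnk6, for example, shared its row with Catsperg and Catsperg1, which encode subunits of a sperm calcium channel.

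All rats were Sprague-Dawley, and each of the 4 groups had 3 libraries. The groups were total lungs taken on day 4 of SuHx from rats labelled Ahr-KO, total lungs from wild-type (WT) rats on the same day of SuHx, ECs of WT rats in normoxia, and total lung of WT rats in normoxia at day 0. SuHx combines SU5416 (Sugen), an inhibitor of VEGF receptors, with hypoxia. No group had SU5416 or hypoxia alone, and no group combined Ahr-KO with normoxia. The ECs are labelled day 4, although their columns carry a 0 as the normoxia lungs do. The sources used here do not give the EC isolation, the deleted part of Ahr, or whether replicates are separate animals. The p-values therefore measure the spread between these samples, which may be technical. Libraries are named by group and column suffix, from 0 to 2.

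Potassium channels let potassium leave or enter the cell along its gradient and so set the membrane potential. In smooth muscle of the pulmonary artery, open potassium channels hold the membrane negative and keep voltage-gated calcium channels shut, and their closure depolarises the cell and favours contraction. Voltage-gated channels open on depolarisation, inward rectifiers and tandem-pore channels carry resting current, and calcium-activated channels couple calcium to hyperpolarisation. Auxiliary subunits of the Kcnab, Kcne, Kcnip and Kcnmb families change the gating or traffic of the pores. Kcnk3, an acid-sensitive tandem-pore channel, carries loss-of-function variants in hereditary pulmonary hypertension in people. Kcna5 is a voltage-gated channel of pulmonary artery smooth muscle that takes part in the response to low oxygen.

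The deposited values are estimated reads scaled by 1 factor per library, called signal here. The total signal per library was 20600000 to 27100000. They do not allow levels to be compared between genes, because no length is taken into account. Ahr, the targeted gene, had a signal of 1800.0 to 2523 in lungs labelled Ahr-KO, 1740 to 3073 in WT SuHx lungs, 4767 to 6086 in ECs and 3103 to 5565 in normoxia lungs, so its RNA did not mark the labelled genotype. Cyp1a1, a direct target of the Ahr protein, had 3.87 to 5.32 in lungs labelled Ahr-KO, 65459 to 75071 in WT SuHx lungs, 1123 to 3004 in ECs and 39.2 to 476 in normoxia lungs. The ECs carried 11 endothelial markers at a summed signal of 277343 to 322367, against 109175 to 115003 in normoxia lungs, and 11 of 11 were called higher. Their 8 airway markers summed to 11906 to 29451, against 191006 to 204841 in normoxia lungs, and their 8 alveolar markers to 105228 to 235379, against 485529 to 706155 in normoxia lungs. Ahr-KO 2 and normoxia 2 held the most cardiac muscle RNA of their groups, as described with the members it moved with.

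Promoter sequence is shown for members that the results turn on: Kcnmb1, Kcne4 and Kcnc4, called higher in both SuHx groups, Kcna5 for its link to hypertension, and Kcnk7, which led the ECs. Each sequence is the 250 bases before the annotated start in the GRCr8 assembly of RefSeq, 5′ to 3′ on the strand of the gene, in lower case. Capitals mark GCGTG, the core bound by Ahr with its partner Arnt, and ACGTG, a core bound by hypoxia-inducible factors, on either strand. The deposited table was made on the rn6 build, from which no coordinate is taken. An entry was found for 53 of 78 member symbols.
Kcnmb1 (chr10:19061849-19062098, plus strand): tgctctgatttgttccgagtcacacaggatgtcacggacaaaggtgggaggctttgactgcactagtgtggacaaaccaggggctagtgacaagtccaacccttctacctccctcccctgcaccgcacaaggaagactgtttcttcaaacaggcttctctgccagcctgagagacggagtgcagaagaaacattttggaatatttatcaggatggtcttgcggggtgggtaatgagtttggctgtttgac
Kcne4 (chr9:87695798-87696047, plus strand): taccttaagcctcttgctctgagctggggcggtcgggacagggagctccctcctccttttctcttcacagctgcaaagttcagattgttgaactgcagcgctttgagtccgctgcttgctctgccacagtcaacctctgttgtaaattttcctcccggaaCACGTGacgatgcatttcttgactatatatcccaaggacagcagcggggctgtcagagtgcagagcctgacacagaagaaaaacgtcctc
Kcnc4 (chr2:197788434-197788683, minus strand): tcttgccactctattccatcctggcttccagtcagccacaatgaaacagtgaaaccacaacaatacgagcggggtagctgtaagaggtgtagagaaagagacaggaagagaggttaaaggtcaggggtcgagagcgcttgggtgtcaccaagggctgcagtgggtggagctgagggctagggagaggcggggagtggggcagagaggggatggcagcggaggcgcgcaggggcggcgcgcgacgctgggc
Kcna5 (chr4:161043810-161044059, minus strand): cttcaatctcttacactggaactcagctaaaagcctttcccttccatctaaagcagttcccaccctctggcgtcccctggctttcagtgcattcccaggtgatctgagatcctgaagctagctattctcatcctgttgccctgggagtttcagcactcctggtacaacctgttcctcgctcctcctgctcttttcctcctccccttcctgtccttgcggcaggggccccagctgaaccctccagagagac
Kcnk7 (chr1:212419305-212419554, plus strand): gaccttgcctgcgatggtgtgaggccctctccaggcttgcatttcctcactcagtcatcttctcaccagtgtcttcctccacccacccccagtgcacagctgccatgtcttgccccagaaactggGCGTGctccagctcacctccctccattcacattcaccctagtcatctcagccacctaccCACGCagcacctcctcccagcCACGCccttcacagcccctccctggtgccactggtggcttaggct
The stretch before Kcne4 holds CACGTG, which reads ACGTG on both strands, and the stretch before Kcnk7 holds 3 GCGTG matches. Neither core was present in the windows of Kcnmb1, Kcnc4 and Kcna5, which says only that these letters are not in those 250 bases. GCGTG was found in 21 of 53 member promoters (39.6%), against 27.2% of 27457 promoters of the same length. ACGTG was found in 6 of 53 (11.3%), against 16.9% of all promoters. The CArG box, which serum response factor binds in muscle genes, was in 0 of 53 member promoters, against 1.501% of all. The motifs may share bases. Median GC content was 61.2% in member promoters and 52.0% in all promoters, and the median number of CpG was 12 in member promoters and 6 in all, so composition differed beside these shares.

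The comparison of WT SuHx lungs with normoxia lungs asks which potassium channel genes stood at other levels on day 4 of SuHx. More members fell than rose. Of 79 tested members, 3 rose (Kcnc4, Kcne4 and Kcnmb1) and 10 fell, and 66 did not pass the test (29 members had an unadjusted p under 0.05, 36.7%, against 31.7% of all rows). The fallers were Kcnd3, Kcnq1, Kcnh6, Kcnh1, Kcne2, Kcnmb2, Kcnn3, Kcnj4 and the merged rows Kcnmb3 with Pik3ca and Kcnk6 with Catsperg and Catsperg1. A fall of a merged row cannot be given to its Kcn gene. Kcnmb3 in its own row had a mean signal of 0.561 over the lung libraries, against 1966 in its merged row. The test was limma on log2(signal + 1) over all rows with a Benjamini-Hochberg adjusted p under 0.05. It called 13.5% of all 15234 tested rows, against 16.5% of the members. The members' share of calls was thus near that of all rows, while its split was not even. Calls in the higher direction took 3.80% of the members against 7.08% of all rows, and calls in the lower direction took 12.7% of the members against 6.39% of all rows. This split rested in part on WT SuHx 2: without that library 3 members were called higher and 3 lower. Without the variance trend in the fit 4 were called higher and 7 lower. With any other library of these groups left out, more members were called lower than higher.

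Beyond the calls, 54 of 79 members had a negative log2 fold change and 25 a positive one. Their median was -0.24, beside -0.04 over all rows, and without WT SuHx 2 it was -0.17, beside -0.04. The WT SuHx libraries lay below all normoxia libraries without overlap for 23 members (29.1%, against 19.7% of all rows) and above them for 7 (8.86%, against 17.0%). By class, 5 of 31 voltage-gated members were called, 1 higher and 4 lower. Of the auxiliary subunits, 5 of 16 tested were called, 2 higher and 3 lower. The inward rectifiers, the tandem-pore channels and the calcium- or sodium-activated channels had 1 call each, all lower, of 15, 10 and 7 members. The count of 13 moved with single libraries: it was 4 without WT SuHx 0, 6 without WT SuHx 2, 7 without normoxia 0 and 8 without normoxia 1. The calls over all rows dropped as well, from 2052 to 862, 1115, 953 and 1148 in the same order.

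**Figure D1:**
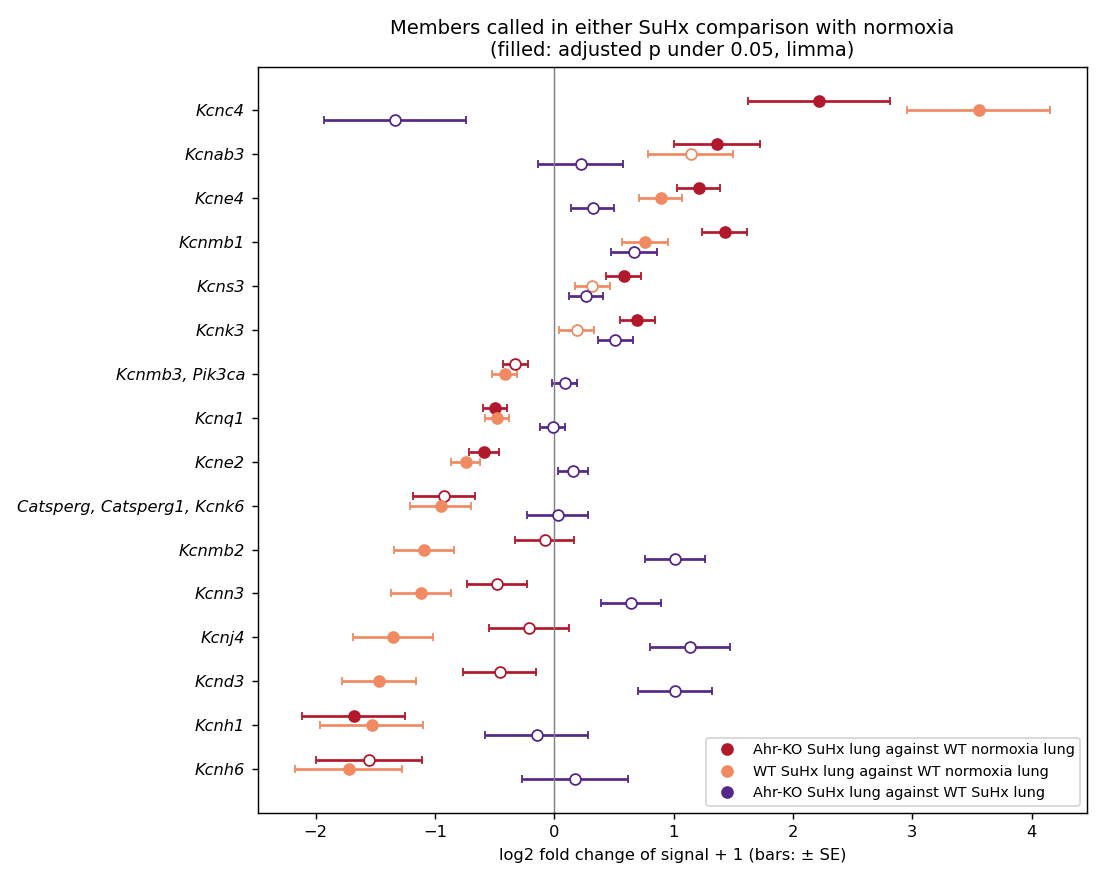
Log2 fold change of signal + 1 with its SE (x axis) for the 16 members called in either comparison of SuHx lung with normoxia lung (y axis), in 3 comparisons, where filled points passed the adjusted threshold in limma. The comparisons with normoxia share their normoxia libraries, and no point of the comparison of lungs labelled Ahr-KO with WT SuHx lungs is filled.

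Kcnmb1 encodes the beta subunit that raises the calcium sensitivity of the large-conductance channel of smooth muscle, whose pore is Kcnma1. Its signal was 596, 522 and 476 in lungs labelled Ahr-KO, 337, 427 and 257 in WT SuHx lungs and 190.1, 177 and 225 in normoxia lungs. The 3 lung groups did not overlap, with the lungs labelled Ahr-KO highest. The rise in WT SuHx lungs over normoxia lungs was 1.69-fold (log2 fold change 0.76 ± 0.19 SE, adjusted p = 0.032), and in lungs labelled Ahr-KO over normoxia lungs it was 2.69-fold (1.43 ± 0.19, adjusted p = 0.0019). The difference between lungs labelled Ahr-KO and WT SuHx lungs (0.67 ± 0.19) did not pass the adjusted threshold (adjusted p = 0.191). The rise in WT SuHx lungs was not called without normoxia 0, normoxia 1, WT SuHx 0 or WT SuHx 1 (adjusted p = 0.066 to 0.0991), while the rise in lungs labelled Ahr-KO was called in all 14 alternatives.

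The pore gene Kcnma1 itself had 82.8, 59.3 and 70.7 in lungs labelled Ahr-KO, 69.1, 76.5 and 55.1 in WT SuHx lungs and 42.2, 23.9 and 63.7 in normoxia lungs. Normoxia 2 lay within the range of the SuHx lungs, and neither comparison with normoxia passed (adjusted p = 0.176 for lungs labelled Ahr-KO and 0.183 for WT SuHx lungs). Without normoxia 2 the value for lungs labelled Ahr-KO was 0.0494. Smooth muscle markers moved with Kcnmb1. The 10 of them summed to 54821 to 81721 in lungs labelled Ahr-KO, 52918 to 77872 in WT SuHx lungs and 31232 to 41758 in normoxia lungs, and 6 of 10 were called higher in each comparison with normoxia. The part of smooth muscle content in the Kcnmb1 result was not tested, and in bulk tissue more cells of a type cannot be told apart from more RNA per cell.

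Kcne4 encodes a membrane-spanning subunit that inhibits voltage-gated channels such as Kcnq1 and Kcna3. It had a signal of 352, 393 and 293 in lungs labelled Ahr-KO, 274, 293 and 259 in WT SuHx lungs and 153, 118 and 179 in normoxia lungs. Every SuHx library lay above every normoxia library. The rise was 1.85-fold in WT SuHx lungs (0.89 ± 0.18, adjusted p = 0.0139) and 2.31-fold in lungs labelled Ahr-KO (1.21 ± 0.18, adjusted p = 0.0034). Without WT SuHx 0 the first of these had an adjusted p of 0.0527, and the second was called in all 14 alternatives. Fibroblast markers stood in the same order of groups: the 6 of them summed to 51212 to 66350 in lungs labelled Ahr-KO, 39093 to 47278 in WT SuHx lungs and 16130 to 28154 in normoxia lungs. Their groups did not overlap, and 3 of the 6 were called higher in each comparison with normoxia and 0 between lungs labelled Ahr-KO and WT SuHx lungs. The median log2 fold change of the 6 against normoxia was 0.37 in lungs labelled Ahr-KO and 0.24 in WT SuHx lungs. The part of fibroblast and smooth muscle content in the Kcne4 result was not tested.

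Kcnc4, a fast-inactivating voltage-gated channel of the Shaw family, had the largest log2 fold change among the members called in lung. Its signal was 20.9, 24.8 and 13.7 in lungs labelled Ahr-KO, 33.1, 78.0 and 48.4 in WT SuHx lungs and 1.59, 1.70 and 10.7 in normoxia lungs. The lung groups did not overlap, and here the WT SuHx lungs were highest. Normoxia 0 and normoxia 1 lay near the signal of a few reads, so the fold of 11.7 in WT SuHx lungs on the scale of signal + 1 (3.55 ± 0.60, adjusted p = 0.00579) rests on low values. That call held in all 14 alternatives. In lungs labelled Ahr-KO the rise over normoxia was 4.65-fold (2.22 ± 0.60, adjusted p = 0.0473), and it was lost in 10 of 14 alternatives. These included leaving out normoxia 0, normoxia 1 or any library labelled Ahr-KO (adjusted p = 0.0755 to 0.154).

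**Figure D2:**
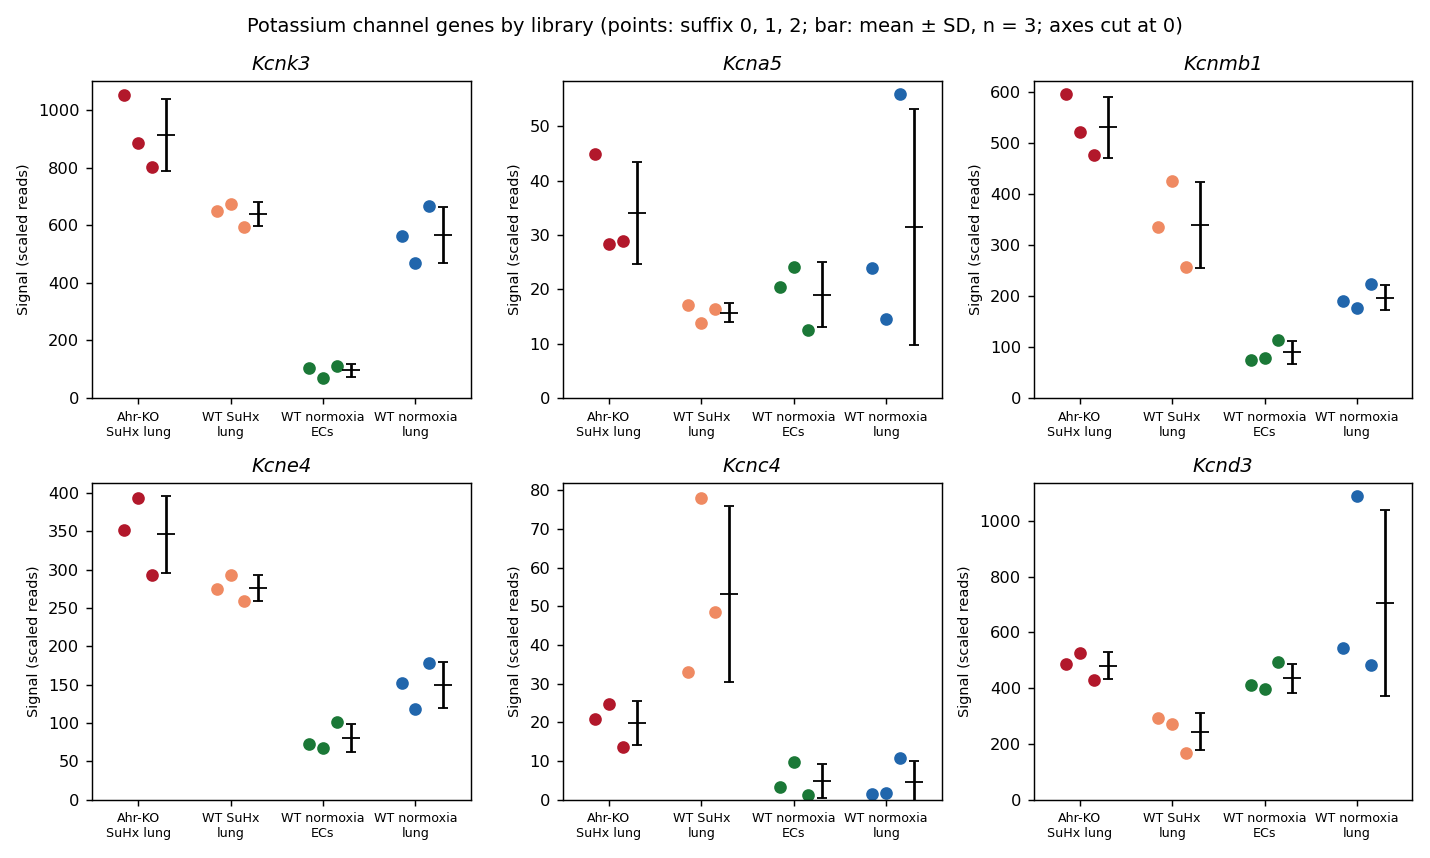
Signal in scaled reads (y axis) of 6 members in each library of the 4 groups (x axis), with points for suffixes 0, 1 and 2 and a bar for the mean ± SD of the 3 libraries. Kcnmb1 and Kcne4 lie higher in every SuHx library than in every normoxia lung library, Kcnd3 is lowest in WT SuHx lungs with 168 to 293, and Kcnk3 is lowest in ECs with 71.1 to 112.

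Among the voltage-gated channels that fell, Kcnd3 carries the transient outward current of the Shal family. It had 488, 526 and 431 in lungs labelled Ahr-KO, 293, 273 and 168 in WT SuHx lungs and 546, 1091 and 482 in normoxia lungs. WT SuHx lungs lay below all other lung libraries, and normoxia 1 stood well above the rest of its group. The fall in WT SuHx lungs was 2.77-fold (-1.47 ± 0.31, adjusted p = 0.0155), with an adjusted p of 0.0513 without WT SuHx 2. In lungs labelled Ahr-KO the same comparison with normoxia gave -0.46 ± 0.31 (adjusted p = 0.377), and their libraries overlapped the normoxia range. Kcnip3, whose product binds the Shal channels, had 360.2 to 410.2 in lungs labelled Ahr-KO, 250.2 to 299 in WT SuHx lungs and 353 to 790.1 in normoxia lungs, without a call (adjusted p = 0.0788 in WT SuHx lungs, and 0.0364 without normoxia 2).

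Kcnq1 forms the slow delayed rectifier of heart and an epithelial channel with Kcne subunits. Its signal was 505, 533 and 509 in lungs labelled Ahr-KO, 504, 506 and 556 in WT SuHx lungs and 683, 800.3 and 710.1 in normoxia lungs. The SuHx groups lay together below the normoxia group. The fall was 1.40-fold in WT SuHx lungs (-0.48 ± 0.10, adjusted p = 0.0153) and 1.41-fold in lungs labelled Ahr-KO (-0.50 ± 0.10, adjusted p = 0.0149). Kcne2, an auxiliary partner of Kcnq1 and Kcnh2, had 701, 769 and 723 in lungs labelled Ahr-KO, 613, 576 and 797 in WT SuHx lungs and 1119, 1105 and 1072 in normoxia lungs. It too was lower in all 6 SuHx libraries, by 1.68-fold in WT SuHx lungs (-0.75 ± 0.12, adjusted p = 0.00558) and by 1.504-fold in lungs labelled Ahr-KO (-0.59 ± 0.12, adjusted p = 0.0178). For Kcnq1 the call in WT SuHx lungs was lost without normoxia 1 or WT SuHx 0 (adjusted p = 0.054 and 0.0662), and that in lungs labelled Ahr-KO without normoxia 1, Ahr-KO 0 or Ahr-KO 1 (0.0502 to 0.0546). For Kcne2 no single library removed the call in WT SuHx lungs, while in lungs labelled Ahr-KO leaving out normoxia 0, normoxia 1 or any library labelled Ahr-KO did (0.0502 to 0.0666). With all 12 libraries in the fit the Kcne2 values were 0.166 in WT SuHx lungs and 0.313 in lungs labelled Ahr-KO. The 8 airway markers summed to 145661 to 211678 in lungs labelled Ahr-KO, 129989 to 142066 in WT SuHx lungs and 191006 to 204841 in normoxia lungs, with 1 called lower in lungs labelled Ahr-KO and 2 called lower in WT SuHx lungs, each against normoxia. The sum was lower in WT SuHx lungs without overlap, and the part of airway content in the Kcnq1 and Kcne2 results was not tested.

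Kcnh1 and Kcnh6 belong to the ether-à-go-go family. Kcnh6 had 24.8, 15.9 and 25.1 in lungs labelled Ahr-KO, 23.6, 17.6 and 16.4 in WT SuHx lungs and 56.5, 134 and 36.0 in normoxia lungs. Kcnh1 had 12.4, 16.8 and 6.84 in lungs labelled Ahr-KO, 17.0, 9.94 and 11.9 in WT SuHx lungs and 38.2, 60.5 and 24.5 in normoxia lungs. Both were lower in all 6 SuHx libraries, and in both normoxia 1 was the highest library. In WT SuHx lungs Kcnh6 fell 3.30-fold (-1.72 ± 0.45, adjusted p = 0.0341) and Kcnh1 fell 2.89-fold (-1.53 ± 0.43, adjusted p = 0.0455). In lungs labelled Ahr-KO Kcnh1 fell 3.21-fold against normoxia (-1.68 ± 0.43, adjusted p = 0.04), and Kcnh6 gave -1.55 ± 0.45 with an adjusted p of 0.0586, which was 0.0207 without normoxia 2. These calls were fragile: each of the 3 was lost on leaving out normoxia 0, normoxia 1 or any library of its SuHx group, with adjusted p up to 0.103 for Kcnh6 in WT SuHx lungs, 0.142 for Kcnh1 in WT SuHx lungs and 0.129 for Kcnh1 in lungs labelled Ahr-KO.

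Among the calcium-activated channels and their subunits, Kcnn3 and Kcnmb2 fell. Kcnn3, a small-conductance channel of endothelium, had 290.2, 318 and 256 in lungs labelled Ahr-KO, 195, 216 and 147 in WT SuHx lungs and 389, 577 and 285 in normoxia lungs. Kcnmb2, a beta subunit that gives inactivation to the large-conductance channel, had 296, 278 and 282 in lungs labelled Ahr-KO, 176, 115 and 139 in WT SuHx lungs and 252, 242 and 452 in normoxia lungs. In both, the WT SuHx lungs lay below all other lung libraries. The fall in WT SuHx lungs was 2.18-fold for Kcnn3 (-1.12 ± 0.25, adjusted p = 0.0199) and 2.13-fold for Kcnmb2 (-1.09 ± 0.25, adjusted p = 0.0214). Lungs labelled Ahr-KO against normoxia gave -0.48 ± 0.25 for Kcnn3 (adjusted p = 0.261) and -0.08 ± 0.25 for Kcnmb2 (adjusted p = 0.869). The Kcnn3 call was lost without normoxia 0, WT SuHx 0 or WT SuHx 2 (0.0582 to 0.0678), and the Kcnmb2 call without WT SuHx 2 (0.0628). The summed signal of the endothelial markers was lower beside Kcnn3 and Kcnh6. The 11 of them summed to 75115 to 95968 in lungs labelled Ahr-KO, 86405 to 90636 in WT SuHx lungs and 109175 to 115003 in normoxia lungs. Of the 11, 4 were called lower and 1 higher in lungs labelled Ahr-KO against normoxia, and 3 lower and 1 higher in WT SuHx lungs against normoxia. The median log2 fold change of the 11 against normoxia was only -0.02 in lungs labelled Ahr-KO and -0.11 in WT SuHx lungs. The part of endothelial content in the Kcnn3 and Kcnh6 results was not tested.

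Kcnj4, a strong inward rectifier, had 170.3, 174 and 155 in lungs labelled Ahr-KO, 68.1, 62.7 and 98.3 in WT SuHx lungs and 121, 334 and 178 in normoxia lungs. It fell 2.56-fold in WT SuHx lungs (-1.35 ± 0.34, adjusted p = 0.0292), and the lungs labelled Ahr-KO overlapped the normoxia lungs. The related Kcnj2 was lower in WT SuHx lungs without overlap, with 334 to 526 against 560.0 to 1069 in normoxia lungs, and had an adjusted p of 0.0529, which was 0.0499 without normoxia 1 and 0.0303 without WT SuHx 1. The Kcnj4 call was lost without normoxia 1, WT SuHx 0 or WT SuHx 1 (0.059 to 0.092). The merged row of Kcnmb3 and the kinase gene Pik3ca had 1645 to 1954 in lungs labelled Ahr-KO, 1608 to 1910.2 in WT SuHx lungs and 2156 to 2474 in normoxia lungs. The row of Kcnk6 with the sperm channel subunit genes Catsperg and Catsperg1 had 263 to 305 in lungs labelled Ahr-KO, 255 to 295 in WT SuHx lungs and 324 to 688 in normoxia lungs. WT SuHx lungs lay below normoxia lungs in both rows, by 1.33-fold (-0.41 ± 0.10, adjusted p = 0.0316) and by 1.94-fold (-0.95 ± 0.26, adjusted p = 0.0394). The Kcnmb3 row lost its call without normoxia 0, normoxia 2, WT SuHx 0 or WT SuHx 2 (0.0552 to 0.114), and the Kcnk6 row without normoxia 0, normoxia 1 or any WT SuHx library (0.0562 to 0.137).

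Normoxia 1, the highest normoxia library for Kcnd3, Kcnh1, Kcnh6, Kcnn3, Kcnj4, Kcnip3 and Kcnj15, also had the highest alveolar marker sum. The 8 alveolar markers summed to 706155 in normoxia 1, against 485529 and 516600 in the other normoxia lungs. In lungs labelled Ahr-KO the sum was 434722 to 470545, and in WT SuHx lungs it was 356780 to 525325. Of the 8, 1 was called lower in WT SuHx lungs against normoxia, and the part of alveolar content in these falls was not tested. Kcnj15, an inward rectifier, had 1933 to 2345 in lungs labelled Ahr-KO, 1604 to 2065 in WT SuHx lungs and 2137, 4887 and 2349.8 in normoxia lungs, without a call in any lung comparison.

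Many members showed no call in any lung comparison. Among those with the highest mean over the lung libraries in their class were Kcnj15, Kcnk1, Kcnn4 and the row of Kcnrg with Trim13. Kcnk1, a weak tandem-pore channel, had 872 to 1042 in lungs labelled Ahr-KO, 796 to 940.3 in WT SuHx lungs and 859 to 1278 in normoxia lungs. In the Kcnrg and Trim13 row the lungs labelled Ahr-KO had 712 to 1110.1, the WT SuHx lungs 811 to 902 and the normoxia lungs 970.1 to 1158. There WT SuHx lungs lay below normoxia lungs without a call (adjusted p = 0.236). Kcnn4, the intermediate-conductance calcium-activated channel of endothelium, T cells and red cells, had 188 to 286 in lungs labelled Ahr-KO, 243 to 315 in WT SuHx lungs and 141 to 210.1 in normoxia lungs. WT SuHx lungs lay above normoxia lungs for Kcnn4 without overlap, with an adjusted p of 0.106. Lungs labelled Ahr-KO overlapped the normoxia lungs for Kcnn4 (0.30 ± 0.22, adjusted p = 0.42). Red cell markers were higher in both SuHx groups: their summed signal was 3507 to 6841 in lungs labelled Ahr-KO, 4502 to 7547 in WT SuHx lungs and 751 to 1310.3 in normoxia lungs, with 6 of 6 called higher in each comparison with normoxia, and their part in the Kcnn4 values was not tested.

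Kcnk3 was highest in lungs labelled Ahr-KO. Its signal was 1052, 886 and 804 there (914 ± 126, SD, n = 3), 648, 674 and 594 in WT SuHx lungs (639 ± 41.3), 106, 71.1 and 112 in ECs (96.4 ± 22.2) and 563, 469.6 and 666 in normoxia lungs (566 ± 98.1). The lungs labelled Ahr-KO lay above all other libraries, the WT SuHx and normoxia lungs overlapped, and the ECs lay below all lungs. Against normoxia the lungs labelled Ahr-KO were 1.62-fold higher (0.70 ± 0.15, adjusted p = 0.019), and WT SuHx lungs differed by 0.19 ± 0.15 (adjusted p = 0.412). The difference between lungs labelled Ahr-KO and WT SuHx lungs, 0.51 ± 0.15, did not pass (adjusted p = 0.194). The call against normoxia was lost without normoxia 0, normoxia 1, Ahr-KO 0 or Ahr-KO 1 (adjusted p = 0.0567 to 0.0644).

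Kcna5 was low in all groups and called in none of the comparisons. It had 44.9, 28.3 and 28.9 in lungs labelled Ahr-KO, 17.0, 13.8 and 16.4 in WT SuHx lungs, 20.5, 24.1 and 12.5 in ECs and 23.9, 14.5 and 56.0 in normoxia lungs. The lungs labelled Ahr-KO lay above the WT SuHx lungs without overlap, while the normoxia lungs overlapped both. Lungs labelled Ahr-KO against WT SuHx lungs gave 1.04 ± 0.45 (adjusted p = 0.354), lungs labelled Ahr-KO against normoxia gave 0.29 ± 0.45 (adjusted p = 0.725), and WT SuHx lungs against normoxia gave -0.75 ± 0.45 (adjusted p = 0.275). Normoxia 2, the highest normoxia library, held the most cardiac RNA of its group, while among lungs labelled Ahr-KO the highest library was Ahr-KO 0 and not the cardiac-rich Ahr-KO 2. The part of cardiac RNA in Kcna5 was not tested. At these levels a change of Kcna5 with SuHx was not detectable beyond the spread of the normoxia lungs.

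Lungs labelled Ahr-KO were set against WT SuHx lungs to ask what the labelled genotype changed under SuHx. No potassium channel gene was called: limma gave 0 of 79, where 0.499% of all tested rows were called. At an unadjusted p under 0.05 it gave 15 members (19.0%, against 13.6% of all rows). Calls over all rows were 0.197% higher and 0.302% lower. Under every alternative run the adjusted count stayed at 0, with 10 to 20 members at the unadjusted level. Of the 79, 55 had a positive and 24 a negative log2 fold change. The median was 0.24, beside 0.02 over all rows. It was 0.07 after quantile normalization and also 0.07 without WT SuHx 2, the WT SuHx library with the lowest Kcnd3 and Kcna3.

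Without overlap between the groups, 16 members (20.3%) were higher in lungs labelled Ahr-KO, against 11.7% of all rows, and 3 (3.80%) were lower, against 10.2%. The 16 were Kcnmb1, Kcnmb2, Kcnip1, Kcnip3, Kcna5, Kcnd3, Kcng2, Kcns3, Kcnv2, Kcnj2, Kcnj4, Kcnj11, Kcnk3, Kcnk12, Kcnk13 and Kcnn3, and the 3 were Kcnc4, Kcnk2 and Kcnk16. Kcnip1, a calcium-binding partner of Shal channels, had 22.4, 23.9 and 22.04 in lungs labelled Ahr-KO, 10.4, 2.29 and 5.96 in WT SuHx lungs and 7.16, 8.52 and 17.6 in normoxia lungs. It gave 1.90 ± 0.50 with an adjusted p of 0.158. Kcnk2, a tandem-pore channel opened by stretch and by fatty acids, had 361, 288 and 288 in lungs labelled Ahr-KO, 465, 427 and 456 in WT SuHx lungs and 360.4, 219.9 and 456 in normoxia lungs. It gave -0.53 ± 0.24 with an adjusted p of 0.363. Kcnk16, another tandem-pore channel, had 1.55, 0 and 0.760 in lungs labelled Ahr-KO, 3.78, 7.65 and 17.9 in WT SuHx lungs and 2.39, 0.852 and 3.83 in normoxia lungs, values of a few reads each.

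**Figure D3:**
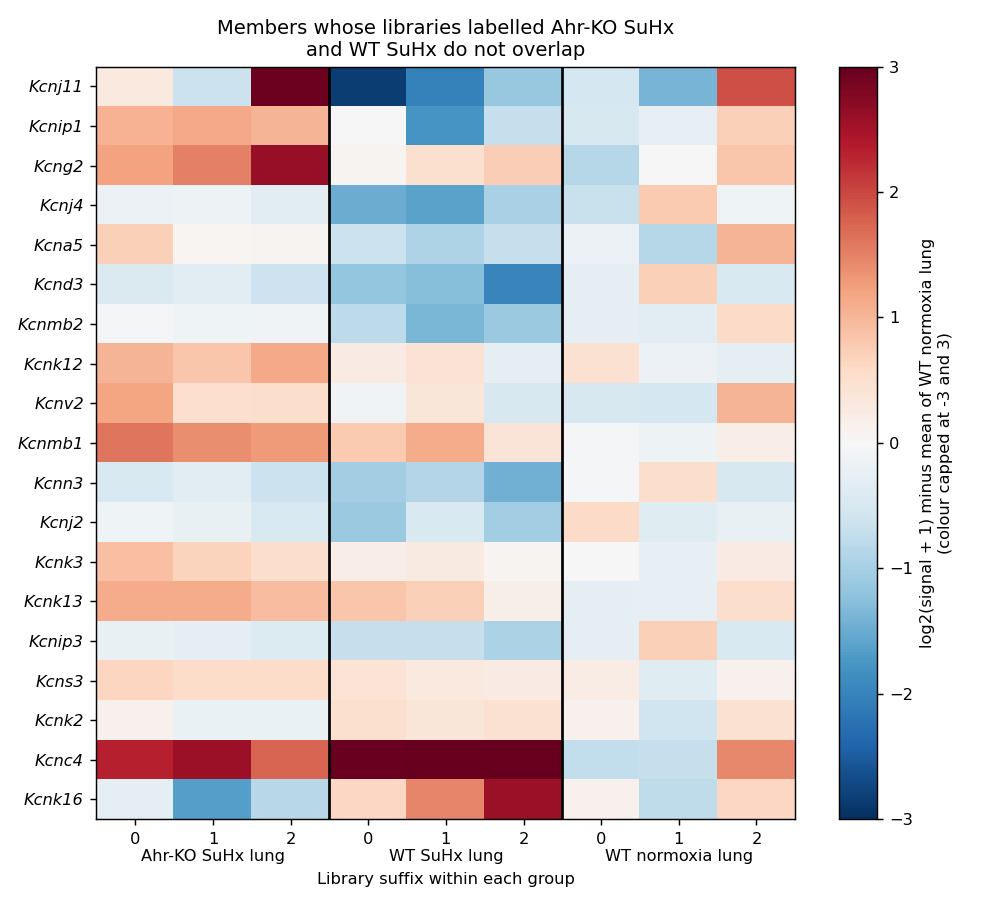
Log2(signal + 1) minus the mean of the WT normoxia lungs, as colour capped at -3 and 3, for the 19 members (y axis) whose libraries labelled Ahr-KO SuHx and WT SuHx did not overlap, in the 9 lung libraries (x axis). The members were picked for not overlapping between these groups, of which 16 were higher and 3 lower in lungs labelled Ahr-KO, and none passed the adjusted threshold.

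Lungs labelled Ahr-KO were also set against WT normoxia lungs, a comparison in which genotype and SuHx differ together and which shares its normoxia libraries with the comparison of WT SuHx lungs. Of 79 members, 6 rose (Kcnmb1, Kcne4, Kcnk3, Kcns3, Kcnab3 and Kcnc4) and 3 fell (Kcnq1, Kcne2 and Kcnh1). The 9 calls are 11.4% of the members, against 9.75% of all rows. In the higher direction the share was 7.59%, against 5.95%, and in the lower direction it was 3.80%, against 3.80%, so both were near the shares over all rows. At an unadjusted p under 0.05 there were 20 members (25.3%, against 26.0% of all rows). After quantile normalization 4 rose and 6 fell. The median log2 fold change was -0.11, beside -0.03 over all rows, and it was 0.08 without the libraries Ahr-KO 2 and normoxia 2. Libraries without overlap were higher for 13 members (16.5%, against 15.1%) and lower for 12 (15.2%, against 17.9%). The count of 9 was 3 without Ahr-KO 0, 3 without Ahr-KO 1, 4 without Ahr-KO 2, 4 without normoxia 0, 2 without normoxia 1 and 15 without normoxia 2. The 1485 calls over all rows became 976, 721, 875, 795, 888 and 1882 in the same order. Libraries with the same suffix deviated together in this comparison, so the suffix may pair them. With the suffix as a block 5 members rose and 4 fell: Kcnc4 and Kcnab3 were no longer called (adjusted p = 0.0505 and 0.0556), and Kcng2, higher, and the row of Kcnk6 with Catsperg and Catsperg1, lower, were called (0.0104 and 0.0447). Over all rows the block gave 2171 calls, against 1485 without it.

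Of these calls, 6 were also called in WT SuHx lungs, and 16 members were called in either comparison. Kcns3 and Kcnab3 were called in lungs labelled Ahr-KO and not in WT SuHx lungs, and no test showed that the groups differed in them. Kcns3 encodes a silent subunit that changes the gating of the voltage-gated pores it joins. It had 1019, 964 and 966 in lungs labelled Ahr-KO, 877, 804 and 777 in WT SuHx lungs and 768, 511 and 719 in normoxia lungs. The 3 lung groups did not overlap, with normoxia lungs lowest, and the rise over normoxia was 1.497-fold in lungs labelled Ahr-KO (0.58 ± 0.15, adjusted p = 0.0369) beside 0.32 ± 0.15 in WT SuHx lungs (adjusted p = 0.169). Kcnab3, a cytoplasmic beta subunit, had 11.6, 10.6 and 13.7 in lungs labelled Ahr-KO, 10.4, 14.5 and 6.70 in WT SuHx lungs and 3.98, 4.26 and 3.83 in normoxia lungs. All SuHx libraries were above all normoxia libraries, by 2.57-fold in lungs labelled Ahr-KO (1.36 ± 0.36, adjusted p = 0.0429) and 1.14 ± 0.36 on the log2 scale in WT SuHx lungs (adjusted p = 0.0624). The Kcns3 call was lost in 8 of 14 alternatives, among them leaving out normoxia 1 or any library labelled Ahr-KO (0.0573 to 0.103), and the Kcnab3 call was lost in 12, among them leaving out any library of either group (0.0673 to 0.119).

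Kcnj11 and Kcng2, singled out after their values were seen, had their highest value in Ahr-KO 2, the library richest in cardiac muscle RNA. The 13 cardiac markers summed to 7680, 5979 and 29762 in lungs labelled Ahr-KO, 3632, 2990 and 2757 in WT SuHx lungs, 287, 322 and 475 in ECs and 1661, 867 and 13509 in normoxia lungs. Kcnj11, a pore subunit of the channel closed by ATP in heart and pancreas, had 7.74, 3.54 and 53.9 in lungs labelled Ahr-KO, 0, 0.765 and 2.23 in WT SuHx lungs, 7.97, 14.5 and 4.99 in ECs and 3.98, 1.70 and 26.1 in normoxia lungs. In Kcnj11 the ECs lay above all WT SuHx lungs and above normoxia 0 and normoxia 1. Kcng2, a silent subunit, had 36.4, 45.2 and 97.3 in lungs labelled Ahr-KO, 16.1, 21.4 and 26.1 in WT SuHx lungs, 7.97, 14.5 and 3.74 in ECs and 7.96, 15.3 and 27.6 in normoxia lungs. In both genes the highest libraries of the Ahr-KO and normoxia groups were the suffix 2 libraries, which also held the most cardiac RNA of those groups. Normoxia 2 lay below Ahr-KO 0 and Ahr-KO 1 in Kcng2 and above them in the cardiac sum. In WT SuHx lungs Kcng2 was highest in the library with the lowest cardiac sum. The median log2 fold change of the 13 cardiac markers was 4.15 in lungs labelled Ahr-KO against WT SuHx lungs. It was -1.23 in WT SuHx lungs against normoxia lungs, although the WT SuHx sums lay above those of normoxia 0 and normoxia 1. Of the 13, 2 were at 0 in every WT SuHx library. With Ahr-KO 2 and normoxia 2 left out, the members called against normoxia were 9 in lungs labelled Ahr-KO and 16 in WT SuHx lungs. Over all rows 1330 and 2729 were then called, against 1485 and 2052 with all lung libraries in the fit. The part of cardiac RNA in Kcnj11 and Kcng2 was not tested.

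**Figure D4:**
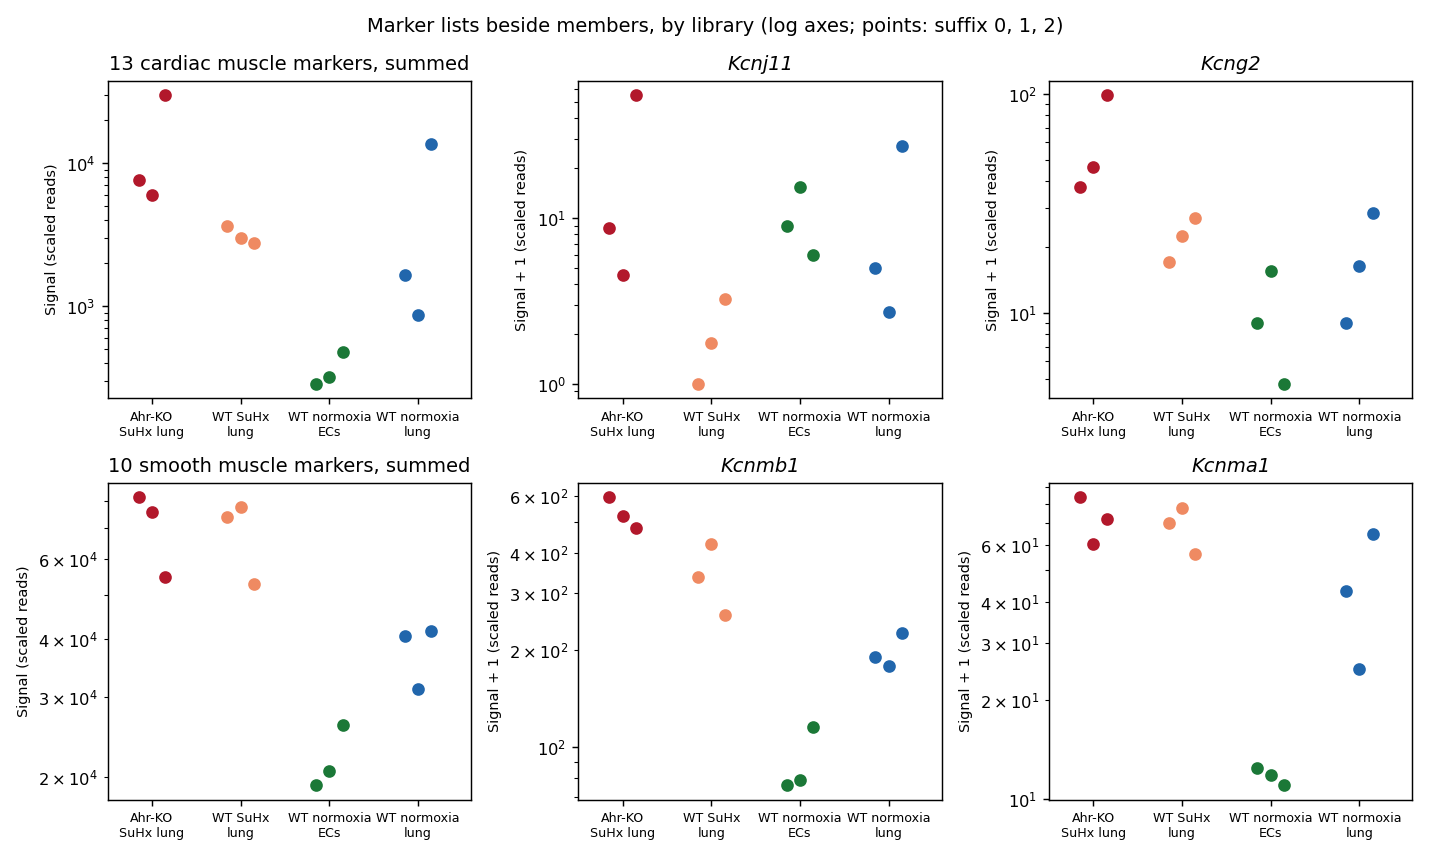
Summed signal of 13 cardiac and 10 smooth muscle markers and signal + 1 of 4 members (y axes, log scale, scaled reads) in each library of the 4 groups (x axis), with points for suffixes 0, 1 and 2. Kcnj11 reaches 53.9 in Ahr-KO 2 and 26.1 in normoxia 2, the libraries with cardiac sums of 29762 and 13509, and Kcnmb1 is higher in all SuHx lungs, as is the smooth muscle sum.

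ECs were set against normoxia lung to show which potassium channel genes the endothelial isolate held more or less of than the whole tissue. Of 80 members, 13 were higher and 37 lower, and 30 did not pass the test. The 50 calls are 62.5% of the members, against 56.2% of all 15186 tested rows, and 65.0% of the members had an unadjusted p under 0.05, against 61.4%. The split leaned to lower levels: 16.3% of the members were called higher, against 26.1% of all rows, and 46.3% lower, against 30.1%. The median log2 fold change was -0.97, beside -0.05 over all rows. After quantile normalization 45 members were called, 20 higher and 25 lower, and the median was -0.42, so the lean was smaller on that scale. Libraries without overlap were higher for 15 members (18.8%, against 30.4%) and lower for 38 (47.5%, against 35.1%). Of the 50 calls, 31 held in all 12 alternatives, and leaving out single libraries gave 40 to 46 calls. Over all rows it gave 7239 to 8069, against 8539 with all libraries.

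Kcnk7, a tandem-pore gene whose product is not known to conduct alone, led the ECs. It had 716, 777 and 537 in ECs and 39.0, 34.9 and 44.5 in normoxia lungs, a 16.6-fold difference (4.05 ± 0.20, adjusted p = 2.2e-05). The other tandem-pore genes higher in ECs were Kcnk5, which opens at alkaline pH, and Kcnk2. Kcnk5 had 221, 233 and 252 in ECs and 67.6, 75.9 and 70.6 in normoxia lungs (1.71 ± 0.17, adjusted p = 0.000188). Kcnn4, the calcium-activated channel of endothelial hyperpolarisation, had 853, 1000.2 and 2041 in ECs and 195, 141 and 210.1 in normoxia lungs, a 6.67-fold difference (2.74 ± 0.33, adjusted p = 0.000468). In the same comparison the summed lymphocyte markers were higher in ECs and the summed red cell markers lower. The 7 T cell markers summed to 4757, 5233 and 11108 in ECs and 2281 to 4058 in normoxia lungs, and 4 of 7 were called higher, while the 4 B cell markers summed to 4745 to 6192 in ECs and 678 to 2217 in normoxia lungs, with 4 of 4 called higher. The 6 red cell markers summed to 78.6 to 103.6 in ECs and 751 to 1310.3 in normoxia lungs, and 5 of 6 were called lower. EC 2 was highest for Kcnn4 and for the T cell sum, and the part of T cells, B cells and red cells in the Kcnn4 result was not tested. Kcnn3, the small-conductance partner of Kcnn4 in endothelium, had 888, 1082 and 433 in ECs and 285 to 577 in normoxia lungs, without a call (adjusted p = 0.0813, and 0.0105 without EC 2).

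Of the voltage-gated members, 7 were higher in ECs, among them Kcng3, Kcnh6, Kcns1, Kcna7, Kcnh3 and Kcng1. Kcnh6 had 394 to 572 in ECs and 36.0 to 134 in normoxia lungs (2.89 ± 0.45, adjusted p = 0.00141). Kcng3, a silent subunit, had 37.4 to 88.0 in ECs and 5.11 to 7.96 in normoxia lungs (3.02 ± 0.39, adjusted p = 0.000643). Kcnj6, a channel opened by G proteins, was the only inward rectifier called higher, with 53.5, 34.9 and 19.97 in ECs and 1.59, 16.2 and 3.83 in normoxia lungs (adjusted p = 0.0214). Kcnab2, a beta subunit, was the only auxiliary member called higher, with 648 to 755 in ECs and 482 to 641 in normoxia lungs (0.40 ± 0.14, adjusted p = 0.0417). The calls of Kcnab2, Kcng1, Kcnj6, Kcns1 and Kcnh3 were lost on leaving out single libraries. These libraries were normoxia 0, normoxia 1, EC 1 or EC 2 for Kcnab2 (0.0964 to 0.119), any library but normoxia 2 for Kcng1 (0.0642 to 0.142), normoxia 0, normoxia 2, EC 0 or EC 1 for Kcnj6 (0.0613 to 0.0741) and for Kcns1 (0.0773 to 0.1), and EC 0 or EC 1 for Kcnh3 (0.0692 and 0.07).

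**Figure D5:**
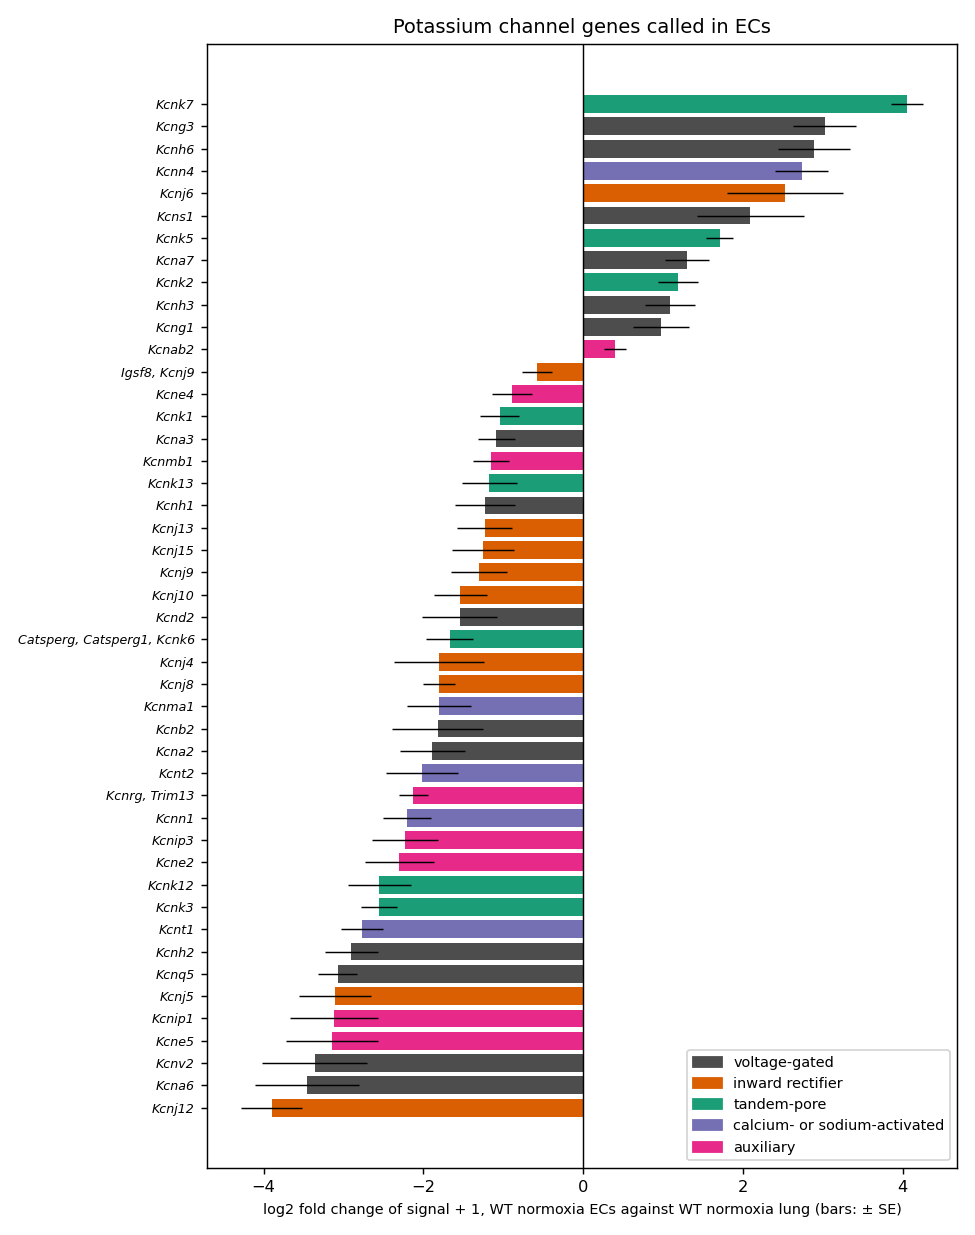
Log2 fold change of signal + 1 in WT normoxia ECs against WT normoxia lung with its SE (x axis) for 46 of the 50 members called (y axis), coloured by channel class. Kcnj3, called lower, is left out since it is listed at 0 in every EC library. The bars range from Kcnj12 at -3.90 to Kcnk7 at 4.05.

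Members of the inward rectifier and tandem-pore classes were also lower in ECs. Kcnj12, a strong inward rectifier, had 13.7, 9.64 and 21.2 in ECs and 293, 148 and 261 in normoxia lungs, a 14.9-fold difference (-3.90 ± 0.38, adjusted p = 0.000192). Kcnj8, the pore of the vascular channel closed by ATP, had 49.0, 55.4 and 68.6 in ECs and 220.4, 183 and 205 in normoxia lungs (-1.81 ± 0.20, adjusted p = 0.000357). Kcnj3, opened by G proteins, was listed at 0 in all ECs and had 38.2, 18.8 and 36.0 in normoxia lungs. The groups lay apart in all of these. Kcnk3 was lower in ECs by 5.87-fold (-2.55 ± 0.23, adjusted p = 0.000131), with the values given above. In all, 10 of 15 inward rectifier rows and 5 of 10 tandem-pore members were called lower. Kcnj9 is counted there in its own row and in the row with Igsf8.

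Kcnq5, a slowly gating voltage-gated channel, had 54.7, 30.1 and 46.2 in ECs and 351, 348 and 397 in normoxia lungs (-3.07 ± 0.25, adjusted p = 9.23e-05). Kcnh2, the pore of the rapid delayed rectifier of heart, had 56.9, 72.3 and 146 in ECs and 687, 581 and 653 in normoxia lungs (-2.90 ± 0.33, adjusted p = 0.000362). No EC library reached the normoxia range in either gene. The sodium-activated Kcnt1 had 19.4, 14.5 and 23.7 in ECs and 150.4, 132 and 122 in normoxia lungs (-2.77 ± 0.26, adjusted p = 0.000177). The row of Kcnrg, a soluble regulator of voltage-gated channels, with Trim13 had 279, 260.3 and 183 in ECs and 1158, 995 and 970.1 in normoxia lungs (-2.13 ± 0.18, adjusted p = 0.000105).

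Kcna2, Kcna3, Kcna6, Kcnb2, Kcnd2, Kcnh1 and Kcnv2 were further voltage-gated members called lower in ECs. Among auxiliary subunits Kcne2, Kcne4, Kcne5, Kcnip1, Kcnip3 and Kcnmb1 were lower as well, and among calcium- or sodium-activated channels Kcnma1, Kcnn1 and Kcnt2. The remaining inward rectifiers called lower were Kcnj4, Kcnj5, Kcnj9, Kcnj10, Kcnj13, Kcnj15 and the row of Kcnj9 with Igsf8, and the remaining tandem-pore members were Kcnk1, Kcnk12, Kcnk13 and the row of Kcnk6 with Catsperg and Catsperg1. Kcnmb1 had 75.1, 78.3 and 115 in ECs (-1.15 ± 0.22, adjusted p = 0.00398) and Kcne4 had 72.9, 67.5 and 101 (-0.89 ± 0.25, adjusted p = 0.0182), both below all normoxia lungs. After quantile normalization Kcnmb1 had an adjusted p of 0.058, Kcne4 of 0.364, Kcna2 of 0.0502 and Kcnj10 of 0.054. Kcnh1, Kcnk13, Kcnj13 and Kcnj9 lost their calls there too, with log2 fold changes of -0.45, -0.42, -0.55 and -0.60 (adjusted p = 0.394, 0.334, 0.216 and 0.186). So did Kcnj4 (0.115), the row of Kcnj9 with Igsf8 (0.101), Kcnb2 (0.0835) and Kcnd2 (0.076). Smooth muscle markers summed to 19205 to 26006 in ECs and 31232 to 41758 in normoxia lungs, and 8 of 10 were called lower. Of 6 pericyte markers, 5 were called lower and 1 higher in ECs, with a median log2 fold change of -2.15. Their sums overlapped, with 8898 to 10387 in ECs and 9181 to 11090 in normoxia lungs. Of 6 fibroblast markers, 5 were called lower, with a median of -4.21. The part of these cell types in the levels of Kcnmb1, Kcnma1, Kcnk3 and Kcnj8 was not tested.

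Some of these lower calls were lost on leaving out single libraries. Without any of normoxia 0, normoxia 2, EC 0 and EC 1 the adjusted p of Kcne4 was 0.058 to 0.061. For Kcnb2 and Kcnj4 the libraries were normoxia 1, normoxia 2, EC 1 and EC 2 (0.0525 to 0.0889 and 0.0559 to 0.0843), and for Kcnd2 and Kcnk13 they were normoxia 2, EC 0 and EC 1 (0.0615 to 0.0646 and 0.066 to 0.0705). Kcnh1 lost its call without normoxia 0, normoxia 1 or any EC library (0.0508 to 0.0761), and the row of Kcnj9 with Igsf8 without normoxia 0, normoxia 1, EC 0 or EC 2 (0.0701 to 0.0996). Kcnj13 depended on normoxia 0 and normoxia 1 (0.0624 and 0.0559 without them), Kcnj15 on normoxia 1 and EC 2 (0.0577 and 0.0647), and Kcnj9 on normoxia 1 (0.0541).

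Other genes of membrane potential and calcium handling were counted from 5 lists chosen with earlier results known. Over all rows 5.95% were called higher and 3.80% lower in lungs labelled Ahr-KO against normoxia, and 7.08% higher and 6.39% lower in WT SuHx lungs against normoxia. Of 15 genes of the sodium-potassium pump and of cation-chloride cotransport, 2 rose in WT SuHx lungs against normoxia (Atp1b3 and Fxyd2). Atp1b3, a beta subunit of the pump, had 4224, 4484 and 4325 in lungs labelled Ahr-KO, 6543, 6098 and 7507 in WT SuHx lungs and 4677, 4957 and 5242 in normoxia lungs. It was the only gene of these lists called between lungs labelled Ahr-KO and WT SuHx lungs (-0.62 ± 0.10, adjusted p = 0.0318, with 0.499% of all rows called), and the lungs labelled Ahr-KO lay below the normoxia lungs as well.

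Of 25 calcium entry channel genes, 1 rose in WT SuHx lungs against normoxia (Trpv2) and 4 fell (Piezo2, Trpm4, Cacna2d2 and Cacnb4), while in lungs labelled Ahr-KO 3 rose (Cacnb3, Cacna2d1 and Trpc6) and 1 fell (Trpm4). Trpm4, a cation channel opened by calcium, had 749 to 819 in lungs labelled Ahr-KO, 822 to 1019 in WT SuHx lungs and 1198 to 1523 in normoxia lungs. The fall was -0.80 ± 0.12 in lungs labelled Ahr-KO (adjusted p = 0.00306) and -0.58 ± 0.12 in WT SuHx lungs (adjusted p = 0.0136). Trpc6, a receptor-operated cation channel, had 397 to 566 in lungs labelled Ahr-KO and 262 to 350.0 in normoxia lungs (0.65 ± 0.17, adjusted p = 0.0445). Of 12 genes of calcium release and removal, Itpr2, a calcium release channel, fell in both SuHx groups (-0.63 ± 0.17, adjusted p = 0.0472, in lungs labelled Ahr-KO and -0.71 ± 0.17, adjusted p = 0.0263, in WT SuHx lungs), and Slc8a1, the sodium-calcium exchanger, rose in lungs labelled Ahr-KO. Of 7 tested auxiliary subunit genes outside the Kcn symbols, Cnih2 rose in both SuHx groups and Amigo1 fell in WT SuHx lungs, and of 9 tested chloride and pacemaker channel genes Hcn4 fell in WT SuHx lungs.

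Most of these calls in lung also rested on single libraries. Between lungs labelled Ahr-KO and WT SuHx lungs, Atp1b3 was lost without any library but WT SuHx 1 (adjusted p = 0.0718 to 0.148). In lungs labelled Ahr-KO against normoxia, Cacnb3, Cacna2d1, Itpr2 and Slc8a1 were lost without normoxia 0, normoxia 1 or any library labelled Ahr-KO (0.0675 to 0.148), Trpc6 without any library but Ahr-KO 2 (0.0556 to 0.155), and Cnih2 without normoxia 0 or Ahr-KO 1 (0.0539 and 0.0575). In WT SuHx lungs against normoxia, Atp1b3, Itpr2 and Hcn4 were lost without normoxia 0, normoxia 1, WT SuHx 0 or WT SuHx 2 (0.0506 to 0.117), Fxyd2 without normoxia 0, normoxia 1, WT SuHx 1 or WT SuHx 2 (0.0564 to 0.106), and Cacna2d2 without normoxia 0, normoxia 1 or any WT SuHx library (0.0508 to 0.106). Cacnb4 and Trpv2 were lost there without any library but WT SuHx 1 (0.0611 to 0.146), Piezo2 without normoxia 0 or WT SuHx 0 (0.0516 and 0.052), Cnih2 without normoxia 0 or WT SuHx 2 (0.0585 and 0.0619) and Trpm4 without WT SuHx 0 (0.0558). The fall of Trpm4 in lungs labelled Ahr-KO and that of Amigo1 in WT SuHx lungs held without each library in turn. With the suffix as a block, Slc8a1 in lungs labelled Ahr-KO against normoxia was no longer called (0.0555), while Itpr1, Fxyd6, Amigo1, Ano6, Clca1 and Stim1 were called there (0.00304 to 0.0475).

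In ECs against normoxia lungs, 8 calcium entry genes were higher and 12 lower of 25, and 6 pump and cotransport genes were higher and 3 lower of 15. Over all rows 26.1% were called higher and 30.1% lower. The mechanically gated Piezo2 had 5429 to 7113 in ECs and 2336 to 2561 in normoxia lungs (1.37 ± 0.12, adjusted p = 0.000112). Cacna2d1, a subunit of voltage-gated calcium channels, had 158 to 181 in ECs and 796 to 844 in normoxia lungs (-2.25 ± 0.11, adjusted p = 2.33e-05). In the row of the pore gene Cacna1c with Ankrd26 the difference was -1.35 ± 0.08 (adjusted p = 3.56e-05). Among pump genes the regulators Fxyd1 and Fxyd5 differed by -2.83 ± 0.14 and 1.28 ± 0.12. The calcium release and removal list had 3 higher (Itpr3, Atp2a3 and Itpr2) and 1 lower of 12, the auxiliary list 0 higher and 4 lower of 7 (Abcc9, Amigo1 and Dpp6 leading), and the chloride and pacemaker list 2 higher and 4 lower of 11 (Ano6 higher, Cftr and Clcn3 lower). After quantile normalization Atp2a3 and Itpr2 lost their calls (adjusted p = 0.227 and 0.0829). Abcc9, the sulfonylurea receptor that pairs with Kcnj8 in vessels, was among the auxiliary genes lower in ECs, with 359 to 580.4 against 1076 to 1544 in normoxia lungs (-1.62 ± 0.21, adjusted p = 0.000701).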

How the data were processed

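RNA was sequenced from 9 lung and 3 EC libraries. Library and alignment steps are given only in part: the submitters' processing notes name the rn6 build and FastQC, while the aligner, counter, strandedness and scaling were not given in the sources used here. The deposited table holds a signal per row: from its values, the authors gave estimated reads divided by 1 factor per library. A read was worth 0.745 to 1.25, giving 20000000 to 28600000 reads per library, and 79.4% to 81.2% of values were whole reads within 0.05, so no count test was run. Column suffixes, from 0 to 2, do not match the titles' numbers, from 1 to 3, so columns were tied to groups only. Same-suffix libraries of the Ahr-KO and normoxia lung groups deviated together from their group means in 3 of 3 pairs (correlations of 0.115 to 0.236, against -0.229 to 0.073 in the 6 cross pairs), so the pairing, which comes from the values and not from the labels, is reported beside that comparison. In the other comparisons at least 1 pair was at or under 0.1.

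Rows whose mean signal reached 1 in the libraries of a fit were tested with limma 3.58.1 in R 4.3.3 on log2(signal + 1) (eBayes with trend, group means, two-sided, Benjamini-Hochberg over all tested rows, call at an adjusted p under 0.05). Fold changes are on that scale, which understates changes of low genes. The 9 lung libraries were fitted together, giving the 3 lung comparisons, and ECs with normoxia lung in a fit of 6. The fit was tested on simulated data. Kcnmb3 as a row of its own missed the filter in lung, which left 79 of 80 members. Related genes, overlapping genes and opposite strands may share reads, so such rows are uncertain. Called members were named, except a few items that are counted but not reported here, with values by library for the 12 with the smallest adjusted p in a comparison, with Kcnk3, Kcna5 and the highest member of each class without a lung call. From each list of other genes up to 3 called genes were to be named, and Trpv2, Cacnb4 and Trpc6 were added after their values were seen. The members and lists were chosen with earlier results of these data known. Alternatives were a fit without the trend, quantile normalization, dropping the filter or raising it to 5, fits of all 12 libraries or of only 2 groups, a pseudocount of 0.1, a further demand of 1 or more in absolute log2 fold change, the suffix as a block, each library left out, and both cardiac-rich libraries (Ahr-KO 2 and normoxia 2) left out. Where alternatives are counted for a gene, the block and the fold threshold are not among them.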

Additional observations from a re-analysis of the deposited data

How the results depend on the processing

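The number of members called in WT SuHx lungs against normoxia was 13, and it was 7 where an absolute log2 fold change of 1 or more was also required and 4 to 16 with each library left out. In lungs labelled Ahr-KO against normoxia it was 9, with 5 under that demand, 5 with only these groups in the fit and 2 to 15 with each library left out. Between lungs labelled Ahr-KO and WT SuHx lungs it was 0 under every alternative, and in ECs against normoxia lungs it was 50, with 45 to 51 under the other settings and 40 to 46 with each library left out. With each library left out, all rows gave 862 to 2277 calls in WT SuHx lungs and 721 to 1882 in lungs labelled Ahr-KO, each against normoxia. In ECs they gave 7239 to 8069. Fewer libraries in a fit also means a test with less power, and the cause of the remaining shifts was not tested. Calls held in all alternatives for 1 of 13 members in WT SuHx lungs (Kcnc4), 2 of 9 in lungs labelled Ahr-KO (Kcne4 and Kcnmb1) and 31 of 50 in ECs. No called member turned its sign. Kcna5, never called, did so: lungs labelled Ahr-KO against normoxia gave 0.29, with -0.0341 after quantile normalization and -0.1358 to 0.8039 with each library left out (negative without normoxia 1), and ECs gave -0.53, with 0.224 after quantile normalization. Kcnmb2 in lungs labelled Ahr-KO against normoxia gave -0.08, with 0.216 without both cardiac-rich libraries and -0.2416 to 0.2071 with each library left out (positive without normoxia 2). The cause was not tested.

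With the suffix as a replicate block, 9 members were called in lungs labelled Ahr-KO against normoxia, where same-suffix libraries deviated together. In the other comparisons the libraries share only a number: 2 of 3 same-suffix pairs correlated above 0.1 between WT SuHx and normoxia lungs (-0.025 to 0.175), 2 of 3 between lungs labelled Ahr-KO and WT SuHx lungs (0.005 to 0.276) and 1 of 3 between ECs and normoxia lungs (0.035 to 0.152). The block there gave 19 members called in WT SuHx lungs, adding Kcna3, Kcnip3, Kcnj2, Kcnj11 and Kcnj15 among others, 0 between lungs labelled Ahr-KO and WT SuHx lungs and 51 in ECs, adding Kcnn3, Kcnh4 and Kcnk10 and ending Kcnb2 and Kcng1. Over all rows, calls against normoxia went from 2052 to 3385 in WT SuHx lungs with the block. They went from 1485 to 2171 in lungs labelled Ahr-KO and from 8539 to 8559 in ECs. With 3 libraries a group and low values, changes of members with low signal, such as Kcna5 and Kcnk16, were not detectable unless large.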
